A study of Mus musculus with 5 samples.

Results

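The regulators described here are 10 genes that encode nuclear receptors and other transcription regulators of mitochondrial energy genes, namely Ppara, Ppard, Rxra, Rxrg, Esrra, Esrrb, Esrrg, Ppargc1a, Ppargc1b and Nrf1. They are taken by gene name, with earlier results of these data known, and all 10 were found among the 15116 genes of the deposited table. RNA was measured by bulk 3′ tag sequencing of 5 mouse hearts, of which 3 were control hearts of the genotype Immt+/+-Myh6-Cre and 2 were knockout hearts of the genotype Immtfl/fl-Myh6-MCM. Immt encodes Mic60, a core subunit of the MICOS complex that shapes the cristae of mitochondria. All 5 mice are labelled as injected with tamoxifen, which the design places at 6 weeks of age. For the knockout hearts the labels put collection at 10 weeks after tamoxifen. For the control hearts they state no such time, and the controls were matched by age. The Myh6 promoter drives Cre in cardiomyocytes, and MCM (MerCreMer) is a Cre that acts only once tamoxifen is given. The controls carried the Cre that is always active, so the form of Cre and the loss of Immt cannot be told apart. The comparison asks how transcripts of these regulators differed in hearts that had lost Mic60.

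The heart takes most of its energy from fatty acids that are oxidized in mitochondria. The receptors PPARα and PPARδ, encoded by Ppara and Ppard, are activated by fatty acids and bind DNA as a dimer with a retinoid X receptor, which Rxra and Rxrg encode. The dimer binds direct repeats of a hexamer and turns on genes of fatty acid uptake and oxidation. The estrogen-related receptors ERRα, ERRβ and ERRγ, encoded by Esrra, Esrrb and Esrrg, are orphan receptors that bind a single extended hexamer near genes of the respiratory chain and the citric acid cycle. NRF1 is not a nuclear receptor and binds GC-rich elements of nuclear genes for mitochondrial proteins. PGC1α and PGC1β, encoded by Ppargc1a and Ppargc1b, are coactivators that bind no DNA themselves and act through these factors.

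Sequences around matches to these elements are shown because the regulators are known to act on each other's genes. RefSeq windows on GRCm38.p6, from 250 bases before to 50 bases after a transcription start, were at hand for 9 of the 10 genes, 16 windows in all, and Ppargc1b is named only. Each line below gives 30 bases in the direction of the gene, with the matched letters in capitals. The estrogen-related receptor element (AAGGTCA, searched on both strands) is marked in the first 2 lines and the core of the NRF1 element (GCATGCG, on both strands) in the others. The Esrrg line shows the core on the opposite strand.
Rxrg, chr1:167618164-167618193: gatcggggttgaAAGGTCAgctgaaagctt
Rxra, chr2:27709231-27709260: tgggtggcaggaAAGGTCAgtcactctctg
Ppara, chr15:85735735-85735764: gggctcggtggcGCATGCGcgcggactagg
Esrra, chr19:6921825-6921854, minus strand: accccctgttttGCATGCGcaggccggccc
Esrrg, chr1:187651728-187651757: gagggagccaaaCGCATGCaaagagaaacg
The receptor element ended 83 bases before the start of Rxrg and 43 bases before that of Rxra. It matched in 2 of the 16 windows (12.5%) and in 4.72% of the 32851 windows of all genes. The NRF1 core matched in 3 of 16 windows (18.8%), against 3.58% of all windows. The plain hexamer (AGGTCA), which lies inside the receptor element, matched in 2 of 16 windows (12.5%), against 16.3%, and its direct repeat with a spacer of 1 base in 0 of 16, against 0.0396%. These matches describe letters and say nothing of binding.

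Values are given in normalized CPM, read counts per M reads on library sizes that the authors had normalized. The authors deposited only a mean and an SD for each group. Because a CPM value is a whole number of reads, or of fractions of a read, times a fixed step for each library, the values of the single libraries could be worked back from the mean and the SD. This gave values in all 5 libraries for 12763 of the 15116 genes (84.4%), among them all 10 regulators. The libraries are called A, B and C (control, effective sizes of 13.6, 13.6 and 12.1 M reads) and D and E (knockout, 15.2 and 14.1 M reads). These letters could not be matched to the replicate numbers of the labels.

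Immt was at 249, 263 and 250 CPM in control libraries A, B and C and at 15.98 and 19.8 CPM in knockout libraries D and E. The control values came from the first division of reads with a solution. Finer divisions gave other sets, such as 253, 247 and 263 CPM in A, B and C. The printed mean and SD allowed control values only between 245 and 263 CPM, above both knockout values. The knockout mean was 7.04% of the control mean (log2 difference −3.79 ± 0.094, SE; limma with Benjamini-Hochberg adjustment, adjusted p = 3.25e-07), although a 3′ tag does not measure the floxed exon itself. Control library C stood apart from the other controls. Over 7847 genes, the SD of the log2 ratio between libraries was 0.160 for A and B, 0.161 for D and E, and 0.239 and 0.235 for A and C and for B and C. C was the control farthest from the middle control value in 46.5% of these genes, against 26.8% for A and 26.7% for B. The cause was not tested, and results that rest on C are given with and without it. Over all genes 26.2% were called. Of 10 cardiomyocyte markers 0 rose and 5 fell, with summed means of 36197 CPM (control) and 30940 CPM (knockout), and scaled to library totals 1 rose and 3 fell. Of 10 macrophage markers 0 rose and 4 fell, with summed levels of 324 to 381 CPM in the control libraries and 243 to 257 CPM in the knockout libraries. Of 10 smooth muscle and pericyte markers 0 rose and 2 fell. Of 10 endothelial markers 1 rose and 0 fell, and of 10 fibroblast markers 0 rose and 1 fell. None of 5 blood genes passed, with a median log2 difference of −0.85 and summed means of 5948 CPM (control) and 3378 CPM (knockout). In bulk tissue, fewer cells of a type and less RNA per cell cannot be told apart, and the part of these shifts in the results below was not tested.

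None of the 10 regulators passed the test. With all libraries, 0 of 10 had an adjusted p below 0.05 in limma and 0 of 10 had an unadjusted p below 0.05, while 26.2% of all genes were called (3958 of 15116, with 13.3% higher and 12.9% lower) and 37.9% had an unadjusted p below 0.05. Among the 7127 genes whose control mean lay within the range of the regulators, 6.74 to 86.0 CPM, 30.3% were called. Called differences beyond 1 on the log2 scale, found for 2.08% of all genes in the higher and 3.84% in the lower direction, were found for 0 of the 10. The knockout mean was above the control mean for 4 regulators and below it for 6 on the log2 scale, and the median log2 difference of the 10 was −0.03, beside −0.02 for all genes. The differences ran from −0.14 for Ppargc1b to 0.36 for Ppard. The 95% intervals of all 10 differences included 0, and all 10 left out both a doubling and a halving. The control and knockout values overlapped for all 10, whereas the groups did not overlap for 51.3% of the genes with values per library.

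**Figure D1:**
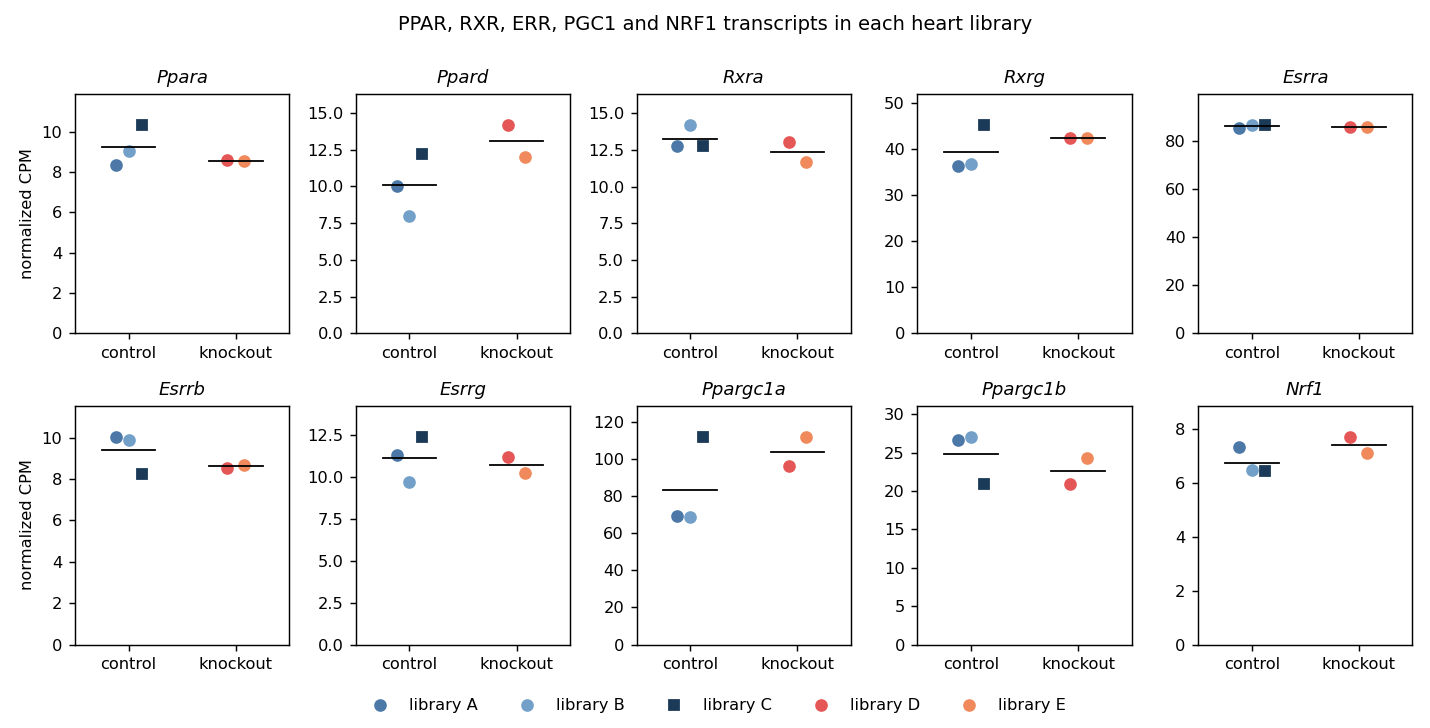
Normalized CPM (vertical axis, from 0, with its own scale for each gene) of the 10 regulators in the 3 control libraries (A, B and C, blue, with C as a dark square) and the 2 knockout libraries (D and E, red and orange), where the horizontal line is the group mean. Control and knockout points overlap in every panel, and for Ppargc1a library C at 112 CPM lies beside the knockout libraries while A and B lie near 69 CPM.

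Neither of the fatty acid receptors, Ppara and Ppard, passed the test. Ppara, the main PPAR of fatty acid oxidation in the heart, was at 8.36, 9.03 and 10.3 CPM in control libraries A, B and C and at 8.62 and 8.53 CPM in knockout libraries D and E. Both knockout values lay within the range of the controls, and the log2 difference was −0.10 ± 0.13 (SE; 95% interval −0.40 to 0.19; limma adjusted p = 0.615). Ppard, the other PPAR of heart muscle, was at 10.0, 8.0 and 12.2 CPM in A, B and C and at 14.1 and 12.0 CPM in D and E. Library D was above every control, while E was below C. The difference of 0.36 ± 0.17 was the largest among the 10 and did not pass (95% interval −0.03 to 0.75, limma adjusted p = 0.164).

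Of the retinoid X receptors, Rxra was at 12.8, 14.2 and 12.8 CPM in control libraries A, B and C and at 13.0 and 11.7 CPM in D and E. Library E was the lowest and D lay among the controls, with a log2 difference of −0.10 ± 0.11 (SE; 95% interval −0.35 to 0.16; limma adjusted p = 0.574). Rxrg, the retinoid X receptor of striated muscle and other specialized tissues, was at 36.4, 36.8 and 45.1 CPM in A, B and C and at 42.4 CPM in both D and E. Both knockout libraries were above A and B and below C, so the groups overlapped only through C. The difference was 0.10 ± 0.11 (95% interval −0.14 to 0.35, limma adjusted p = 0.533).

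None of the 3 estrogen-related receptors passed the test, and all 3 had log2 differences closer to 0 than that of Ppargc1b. Esrra was at 85.3, 86.3 and 86.3 CPM in control libraries A, B and C and at 85.8 and 85.7 CPM in D and E. The values of the groups interleaved, and the log2 difference was −0.00 ± 0.065 (SE; 95% interval −0.15 to 0.14; limma adjusted p = 0.976). This is the narrowest interval of the 10, and on the fold scale it ran from 0.90 to 1.1. Esrrb was at 10.0, 9.91 and 8.25 CPM in A, B and C and at 8.55 and 8.67 CPM in D and E. Both knockout values lay below A and B and above C, with a difference of −0.12 ± 0.13 (95% interval −0.41 to 0.17, limma adjusted p = 0.543). Esrrg, which is abundant in tissues with a high energy demand, was at 11.3, 9.69 and 12.4 CPM in A, B and C and at 11.2 and 10.2 CPM in D and E. The knockout values lay within the control range, with a difference of −0.05 ± 0.13 (95% interval −0.35 to 0.25, limma adjusted p = 0.810).

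Of the coactivators, Ppargc1a had the largest SD relative to its mean among the 10 genes in the control group. Ppargc1a, which is induced by cold, fasting and exercise in other tissues, was at 69.1, 68.6 and 112 CPM in control libraries A, B and C and at 96.4 and 112 CPM in D and E. Libraries A and B were lowest, and C was level with the higher of the knockout libraries. The mean was 1.25 times as high in the knockout (log2 difference 0.32 ± 0.21, SE; 95% interval −0.15 to 0.79), which did not pass (limma adjusted p = 0.296). The control values of Ppargc1a rest on counts in parts of 0.5 read, the division that also gave values for the knockout libraries. Reads divided by 3 gave another set for the controls, 54.4, 97.1 and 98.3 CPM, and none for the knockout. Ppargc1b, the related coactivator, was at 26.7, 27.1 and 20.9 CPM in A, B and C and at 20.9 and 24.3 CPM in D and E. Here A and B were highest and C was level with the lower of the knockout libraries, with a difference of −0.14 ± 0.13 (95% interval −0.43 to 0.16, limma adjusted p = 0.494).

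Nrf1 was the regulator with the fewest reads, 78 to 117 in a library. It was at 7.33, 6.46 and 6.44 CPM in control libraries A, B and C and at 7.71 and 7.11 CPM in D and E. Library A lay between the knockout libraries, and the log2 difference was 0.13 ± 0.13 (SE; 95% interval −0.17 to 0.43; limma adjusted p = 0.527). Nrf1 is a different gene from Nfe2l1 and Nfe2l2, whose proteins also go by the name NRF.

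The deposited SDs showed where the libraries of a group differed. In the control group the coefficient of variation ran from 0.721% for Esrra to 30.02% for Ppargc1a, with a median of 11.5% over the 10 genes. In the knockout group it ran from 0.00429% for Rxrg to 11.5% for Ppard, with a median of 6.02%. An SD of 2 libraries is a poor estimate, and the Rxrg value reflects 645 and 597 reads that came to nearly equal CPM. Counting error alone, taken as Poisson error of the reads, would give a coefficient of variation of 3.05% for Ppargc1a and 8.74% for Ppard in the control group. The measured values there, 30.02% and 20.9%, were 9.84 and 2.39 times as large. For Esrra, Rxra and Nrf1 the measured control value was below that of counting error, and in the knockout group it was below it for 6 of the 10 genes.

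Library C changed the result for Ppargc1a and Ppard. In 8 of the 10 regulators C lay outside the range of the other 4 libraries, and in 6 it lay on the knockout side of both A and B. For Esrra, Ppargc1a, Ppargc1b and Nrf1, however, C was level with the nearest library, such as 86.33 beside 86.32 CPM for Esrra. The share of all genes was not worked out for either count. The values per library were tested again without C, a choice made after the values had been seen. Without C the groups did not overlap for 5 of the 10, namely Ppard, Rxrg, Esrrb, Ppargc1a and Ppargc1b, beside 64.8% of 12763 genes. In that fit 2 of the 10 regulators were called higher and 0 lower, while 14.0% of 12763 genes were called higher and 17.0% lower. Ppargc1a had a log2 difference of 0.59 ± 0.081 (SE; 95% interval 0.41 to 0.77; limma adjusted p = 0.000211) with 2 control and 2 knockout libraries. With the control values from reads divided by 3 its difference without C was 0.51, from controls of 54.4 and 97.1 CPM. With those values it is A, not C, that lies apart from the other controls, and the difference was 0.50 without B and 0.087 without A. These values were not tested, so the call without C holds for the values in parts of 0.5 read. Ppard had a difference of 0.52 ± 0.14 (95% interval 0.21 to 0.82, limma adjusted p = 0.0160). Rxrg at 0.21 and Ppargc1b at −0.25 did not pass (limma adjusted p = 0.0606 and 0.0776), although their intervals without C left out 0. Esrrb was at −0.20 (adjusted p = 0.241), and the other 5 lay between −0.12 and 0.10. With C kept and all values per library fitted, 0 of 10 were called, beside 22.9% of the genes (10.3% higher and 12.7% lower), and leaving out A, B, D or E in turn called none of the 10.

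**Figure D2:**
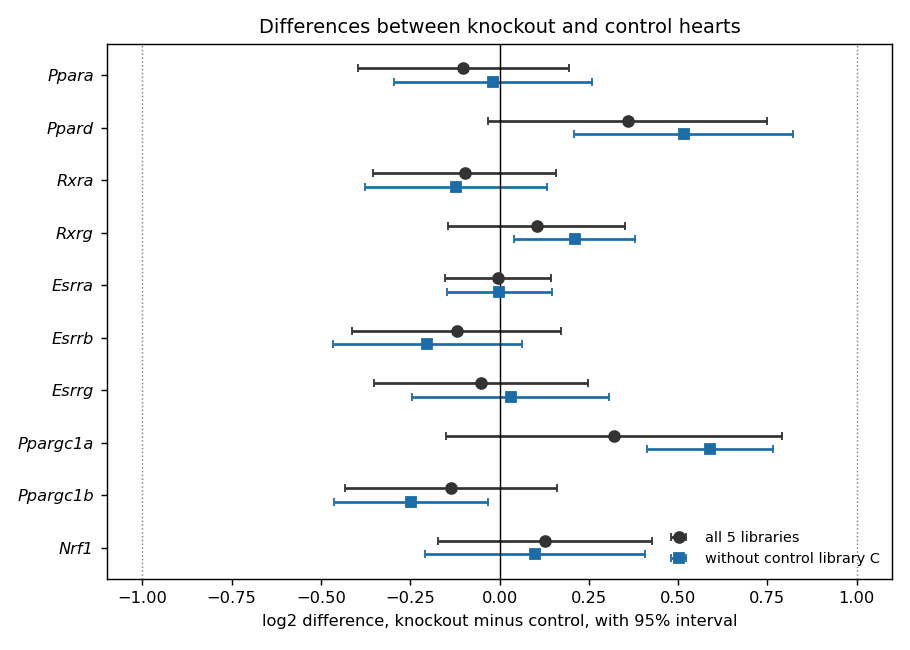
Log2 difference, knockout minus control (horizontal axis), of the 10 regulators with 95% intervals, for all 5 libraries (black circles) and without control library C (blue squares), where dotted lines mark a doubling and a halving. All black intervals cross 0, and without C those of Ppard, Rxrg and Ppargc1a lie above 0 and that of Ppargc1b below it.

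A change of scaling multiplies the knockout values of all genes by the same factor, so it moves every regulator in the same way. Scaled to the total of each group in the deposited table, instead of the authors' normalized sizes, each log2 difference was higher by about 0.13, and the differences of Ppara, Rxra, Esrra, Esrrb and Esrrg turned from below 0 to above 0. Under that scaling 9 of the 10 lay above 0, with a median of 0.10, beside a median of 0.09 for all genes. The share of all genes above 0 was not worked out. None of the 10 was called (the lowest limma adjusted p was 0.0659, for Ppard), beside 29.7% of all genes (20.3% higher and 9.39% lower). The signs of these 5 small differences therefore depend on the scaling.

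Relatives of the regulators and other linked factors, not all of the same families, were measured as well. Of 10 such genes with values, called relatives here, 2 rose and 0 fell (20% called, beside 26.2% of all genes). They include Nfe2l1 and Nfe2l2, which share only a protein name with Nrf1. The median log2 difference was 0.23 (0.36 under library totals), beside −0.02 for all genes. Esr1, the estrogen receptor α gene, was at 0.733, 0.807 and 1.07 CPM in control libraries A, B and C and at 478 and 439 CPM in D and E. It rose by 8.39 ± 0.13 on the log2 scale (limma adjusted p = 1.38e-08). MerCreMer carries mutated domains of the mouse estrogen receptor, and whether these reads came from the transgene was not tested. Nfe2l1, a transcription factor of proteasome genes, was at 166 to 174 CPM in the controls and at 218 and 216 CPM in the knockouts, and rose by 0.35 ± 0.060 (limma adjusted p = 0.00290). Pparg, the PPAR of fat cells, named as a marker of adipocytes, was at 4.33, 3.08 and 6.44 CPM in A, B and C and at 7.24 and 6.75 CPM in D and E. Both knockout values were above every control, and the difference of 0.55 did not pass with C (limma adjusted p = 0.142) and passed without it (0.85, adjusted p = 0.00373). Of 9 adipocyte markers only 2 had values, Pparg itself and Fabp4. Fabp4, which also stood on the list of endothelial markers, was at 1056 CPM in the control mean and 1013 CPM in the knockout mean. Among 23 coregulators 0 rose and 3 fell (13.0%, beside the same 26.2%), with a median of −0.02. Lpin1, which encodes lipin 1, a phosphatidate phosphatase that also acts with PGC1α, had a log2 difference of −0.70 ± 0.17 (limma adjusted p = 0.0178). Its values were 106, 121 and 170 CPM in A, B and C and 81.4 CPM in both D and E, and the call was lost without library D or without E (adjusted p = 0.118 and 0.123), and with a robust prior or no trend (0.0683 and 0.0677). Mef2a, a muscle transcription factor, and Ncoa1, a coactivator of nuclear receptors, had differences of −0.31 and −0.37 (limma adjusted p = 0.0250 and 0.0274) and lost their calls under library totals and with no trend, and without library B, D or E in turn, Mef2a also without A. Of 22 other nuclear receptors 1 rose and 2 fell (13.6%, beside the same 26.2%), with a median of −0.05. Those that fell were the clock receptors Nr1d1 (−0.47, limma adjusted p = 0.0150) and Nr1d2 (−0.44, adjusted p = 0.0387), and these calls were lost without B or D for Nr1d1 and without A, B, D or E for Nr1d2. With no trend both calls were lost (adjusted p = 0.0515 and 0.0988), and under library totals that of Nr1d2 (adjusted p = 0.110).

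Target genes of the regulators were called in both directions. Of 31 PPAR target genes with values, 9 rose and 5 fell (14 of 31, 45.2%, beside 26.2% of all genes), with a median log2 difference of 0.19. Under library totals 18 rose and 1 fell, while 20.3% of all genes rose and 9.39% fell. The median was then 0.32, beside 0.09 for all genes. Acot2, a mitochondrial acyl-CoA thioesterase, was at 31.6 ± 2.17 CPM (SD, n = 3) in the control and at 155 and 175 CPM in the knockout libraries, a log2 difference of 2.37 ± 0.089 (limma adjusted p = 2.03e-06). Its cytosolic paralog Acot1 rose from 2.46 to 6.53 CPM (1.25 ± 0.22, limma adjusted p = 0.00332), and reads of these near-identical genes may have been split between them. Pdk4, which restrains the use of pyruvate, was at 135 ± 35.2 CPM in the control and at 433 and 475 CPM in the knockout, a difference of 1.74 ± 0.18 (limma adjusted p = 0.000222). Fabp3, the fatty acid binding protein of the heart, rose by 0.55 and Cpt1b, which passes fatty acids to carnitine at the outer mitochondrial membrane, rose by 0.40 (limma adjusted p = 0.000202 and 0.00441). Acaa2, the last enzyme of mitochondrial β-oxidation, fell from 265 to 192 CPM (−0.46 ± 0.076, limma adjusted p = 0.00253). The calls of Cpt1b and Acot1 were lost when only the knockout value nearer to the control was kept (adjusted p = 0.0837 and 0.0655).

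Of 32 ERR target genes, 4 rose and 8 fell (37.5%, beside 26.2% of all genes), with a median of −0.09. Under library totals 8 rose and 3 fell, while 20.3% of all genes rose and 9.39% fell, and the median was 0.04. Kcnj2, an inward rectifier potassium channel, was at 27.4 ± 2.75 CPM in the control and at 7.70 and 9.38 CPM in the knockout, a log2 difference of −1.63 ± 0.13 (limma adjusted p = 6.06e-05). Atp2a2, the calcium pump of the sarcoplasmic reticulum, and Uqcrfs1, the Rieske subunit of complex III, fell by 0.48 and by 0.37 on the log2 scale (limma adjusted p = 0.000836 and 0.00220). Cox6a2, the muscle form of a cytochrome oxidase subunit, and Ogdh, of the 2-oxoglutarate dehydrogenase complex, rose by 0.57 and 0.54 (limma adjusted p = 0.000116 and 0.000181), and Pdk4 stood on this list too. Of 19 NRF1 target genes, 7 rose and 1 fell (42.1%, beside the same 26.2%), with a median of 0.04. Under library totals 9 rose and 1 fell, beside the same shares of all genes, with a median of 0.16. Tomm20, a receptor of the import machinery of the outer membrane, was at 71.6 ± 6.84 CPM in the control and at 111 and 120 CPM in the knockout, and rose by 0.68 ± 0.092 (limma adjusted p = 0.000903). Cox5b rose by 0.34, Psma3 of the proteasome by 0.28, Cox7a2 by 0.20 and the import receptor gene Tomm70a by 0.40, while Alas1, of heme synthesis, fell by 0.41 (limma adjusted p = 0.00269, 0.0213, 0.0263, 0.0436 and 0.00905). The Tomm70a call was lost when any 1 of libraries A, B, D and E was left out, and the Alas1 call without E. Those of Cox5b, Psma3 and Cox7a2 were lost when only the knockout value nearer to the control was kept. Cox7a2 also lost its call with only the farther value. With no trend Cox5b, Psma3, Cox7a2 and Tomm70a lost their calls (limma adjusted p = 0.0547, 0.103, 0.181 and 0.113). Tfam, which packages mitochondrial DNA and was looked at after its value was seen, was at 32.9 and 33.3 CPM in the control and knockout means (0.02, limma adjusted p = 0.901). The lists describe counts beside the share of all genes called, and were not tested as sets. That share was not matched to the expression level of the target genes.

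**Figure D3:**
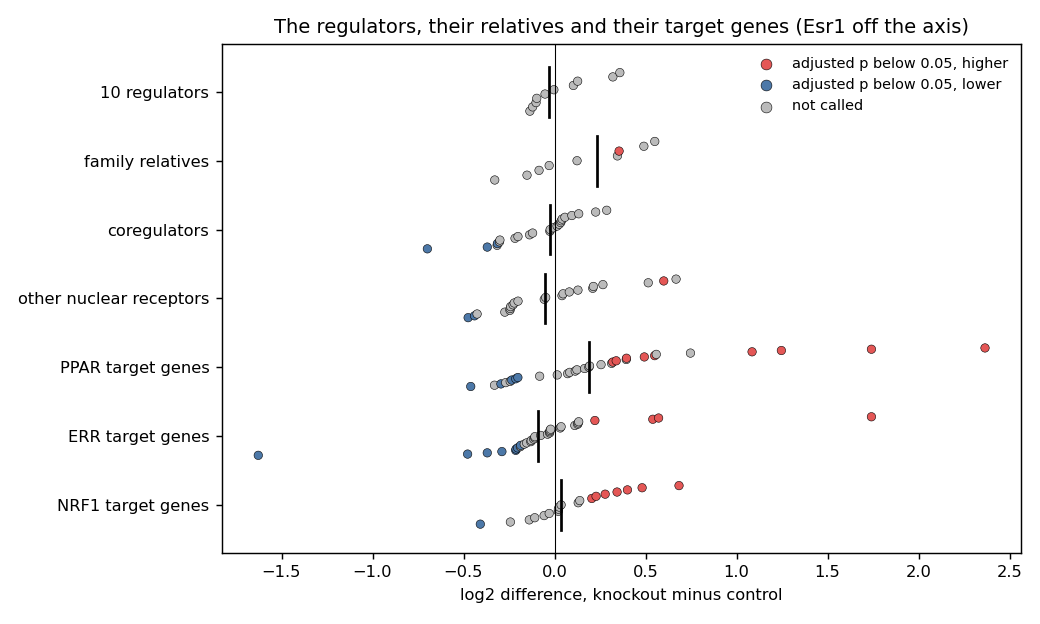
Log2 difference, knockout minus control (horizontal axis), of each gene in the 10 regulators and in 6 lists of relatives, coregulators and target genes, where red points were called higher, blue points were called lower, grey points were not called and the black bar is the median of the list. The regulators hold no red or blue point and lie between −0.14 and 0.36, and the target lists hold called genes in both directions; Esr1, at 8.39, is left off the axis.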

How the data were processed

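The deposited table gives, for each gene, an authors' mean and SD of normalized CPM in each group, a signal scaled to library sizes the authors had normalized. The submitters' processing notes name the build GRCm39 and the tools edgeR 4.0.16, Subread 2.1.1 (with featureCounts), STAR 2.7.11 and SAMtools 1.22.1. Libraries were made from 3′ ends with molecular identifiers. Columns holding the authors' own comparison (log2 fold change, F, p-value, FDR) were not used. The number of columns of other samples was 0. The 10 genes and all lists were chosen with earlier results of these data known.

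Group means were compared as log2(mean + 0.5 CPM), with SDs carried to that scale, in limma 3.58.1 (R 4.3.3) with a mean-variance trend, a two-sided test and Benjamini-Hochberg adjustment over 15116 genes at 0.05, so fold changes of low genes are understated. No count test was run. P-values measure only the spread between 5 samples, 3 against 2, with 3 residual degrees of freedom before moderation. Reads per library (Python 3.11.15) that gave both the printed mean and SD were searched as whole numbers, then in parts of 0.5, divided by 3, and in parts of 0.25. The first division with a solution was taken if it gave only 1, and genes solved by 3 were left out. Simulated counts checked this step for whole reads only. With wrong library steps, the control search still gave solutions for 0.665% of genes with whole reads. For parts of 0.5 and 0.25 this was 2.99% and 5.59%, and for the knockout search 0%. The control shares are averages over 1503 checked genes. The control search covers more candidates where the SD is wider, and no share was worked out for genes with a control SD like that of Ppargc1a. Effective library sizes were 12.1 to 15.2 M reads, and intervals from counts cover counting error only. The genes named are the 10 regulators, Immt, and up to 6 called genes with the smallest p on each list (for lists with none called, up to 2 with the smallest p), except 1 that is not reported here. Tfam was added after its value was seen. Alternatives were library totals, other pseudocounts and filters, other priors, and each library left out. RefSeq windows are on GRCm38.p6, and no gene coordinates of the files' build were used.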

Additional observations from a re-analysis of the deposited data

How the results depend on the processing

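With all 5 libraries, no setting called any of the 10 regulators, and leaving out 1 library gave 0 to 2 called higher, where the 2 were Ppard (0.52) and Ppargc1a (0.59) without control library C. Over all genes, 2014 were called higher and 1944 lower. Library totals gave 3066 higher, the values per library 1313 higher, and leaving out 1 library or knockout value gave 524 to 1781 higher and 605 to 2165 lower, with fewer samples in each fit. Under library totals, log2 differences turned to 0.020 for Ppara, 0.026 for Rxra, 0.12 for Esrra, 0.0016 for Esrrb and 0.071 for Esrrg, and under totals without the mitochondrial genome to 0.026 for Esrra. Leaving out 1 library or value moved the log2 difference of Ppard between 0.23 and 0.52, of Ppargc1a between 0.21 and 0.59 (0.087 to 0.51 with its controls from reads divided by 3) and of Esrrg between −0.14 and 0.031. Under library totals, the medians of coregulators, PPAR, ERR and NRF1 targets were 0.10, 0.32, 0.037 and 0.16. The same scaling called 2 coregulators higher and 1 lower, 1 other nuclear receptor lower, 18 PPAR targets higher and 1 lower, and 8 ERR targets higher and 3 lower. Totals without the mitochondrial genome called 1 coregulator higher, 14 PPAR targets higher and 5 ERR targets lower, and a minimum of 5 CPM called 1 coregulator higher. Without the mean-variance trend 0 coregulators, 0 other nuclear receptors, 1 PPAR target and 3 ERR targets were lower and 2 NRF1 targets higher, and with a robust prior 2 NRF1 targets were lower. Leaving out 1 library or value gave 2 to 4 relatives higher, 0 to 2 coregulators higher and 0 to 4 lower, and 0 to 2 other nuclear receptors higher and 0 to 3 lower. For the target lists, keeping 1 knockout value of each gene gave 3 to 8 PPAR targets higher and 1 lower, 3 to 4 ERR targets lower, and 1 to 3 NRF1 targets higher and 0 to 1 lower. For Immt and the listed genes picked by smallest p, 282 alternative values stayed on their side of the threshold, 59 lost their call, 1 gained one and none reversed. These genes include some not named above, such as the cardiomyocyte marker Tnni3, and leave out Tfam. With 1 mismatch allowed, the receptor element, the hexamer and the NRF1 core matched in 9, 13 and 12 of 16 windows. The share of all windows was not worked out with a mismatch, so these counts cannot show an excess. Only 17 of 31 PPAR targets, 14 of 32 ERR targets and 11 of 19 NRF1 targets had values in all 5 libraries. Called genes such as Acot2, Pdk4 and Tomm20 had none, so counts without C cannot be set against those with all libraries. Without C, 3 of the 17 PPAR targets were higher and 3 lower, and 2 of the 14 ERR targets were higher and 6 lower. Of the 11 NRF1 targets, 2 were higher and 1 lower. In that fit 14.0% of all genes with such values were higher and 17.0% lower. The causes of these changes were not tested. No paired analysis was possible because the deposited columns are group means and carry no replicate numbers. With 1 knockout value or library left out, the lone sample is assumed to vary like the controls. Depth limits Nrf1 most, with 78 to 117 reads in a library.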
